A study of Mus musculus with 144 samples.

Results

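The mRNAs described here encode translation elongation factors and proteins that work beside the ribosome, and they belong to or are commonly studied with the TOP mRNAs. The 9 members, chosen by name from the 51912 genes of the count table, were Eef1a1, Eef1b2, Eef1d, Eef1g, Eef2, Tpt1, Naca, Rack1 and Npm1, and all 9 were counted in all 4 kinds of sample. TOP stands for terminal oligopyrimidine: the transcript opens with a C followed by a run of C and T, and this start lets the cell move the mRNA into or out of polysomes, the mRNAs that carry several ribosomes, as nutrient signalling through mTOR changes. Elongation factor eEF1A brings aminoacyl-tRNA to the ribosome, the eEF1B subunits recharge it with GTP, and eEF2 moves the ribosome along the mRNA. Mice eat mostly in the dark, so the liver is a tissue in which the translation of these mRNAs has been studied over the day.

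The libraries came from livers of male C57BL/6J mice that had free access to food and lived in 12 h light and 12 h dark. Total, nuclear and polysomal RNA were taken from wild-type mice, and total RNA also from mice of the genotype Bmal1-/-, in which the labels do not say what part of this clock gene was deleted. Zeitgeber time (ZT) counts hours from lights on, and at ZT2, ZT6, ZT10, ZT14, ZT18 and ZT22 each of these 4 series held 6 libraries, 144 in all. The labels do not say that replicates were separate animals, nor whether the 3 wild-type series shared livers, so the p-values measure the spread between these samples, which may be partly technical. QuantSeq, the 3′ mRNA sequencing used, reads the end of each transcript beside its poly(A) tail. Levels below are CPM (gene counts scaled to the same total in every library), and changes are log2 ratios with their standard error (SE).

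Gene counts per library summed to 5316601 to 9831142 in wild-type total RNA, 1662449 to 6620128 in nuclear RNA, 2578048 to 13068044 in polysomal RNA and 4379549 to 14281894 in Bmal1-/- total RNA. The 6 hepatocyte markers were detected in every series, with a median summed level of 69885 CPM in total RNA and 37168 CPM in polysomal RNA. The 3 erythroid markers had a median summed level of 2395 CPM in total RNA and 8237 CPM in polysomal RNA. The 6 polysomal libraries labelled replicate 1 stood apart: their 4 lung markers summed to 57.1 to 929 CPM, against at most 1.45 CPM in any other library, and in polysomal RNA the 5 pancreas markers summed to as much as 2069 CPM, against at most 0.909 CPM in the other series. For gene levels of the 9 members, each call that changed without those 6 libraries is given with and without them. Kupffer cell markers had medians of 219.9 and 251 CPM in total and polysomal RNA. One wild-type total RNA library at ZT2, replicate 4, lay farthest from its group over all genes. Arntl, the gene of BMAL1, averaged 11.5 CPM in libraries labelled Bmal1-/- and 6.73 CPM in those of wild-type total RNA (SD 2.98 and 5.40, 36 libraries each), and counts at a transcript's 3′ end cannot check a deletion elsewhere in the gene.

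RefSeq promoter sequences (GRCm38.p6) were found for 6 of the 9 members, all but Eef1d, Eef1g and Npm1. They are shown because a pyrimidine run at the transcript start is the feature that names the group. Each window below holds 10 bases before the annotated start and 20 bases from it on, read 5′ to 3′ on the gene's own strand, and capitals mark the longest run of a C followed by at least 4 bases that are C or T.
Eef1a1, chr9:78481705-78481734, minus strand: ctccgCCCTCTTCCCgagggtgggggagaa
Rack1, chr11:48800350-48800379, plus strand: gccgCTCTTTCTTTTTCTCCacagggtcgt
Naca, chr10:128035336-128035365, plus strand: tcgttCTCTTaaagaggaaacccggacgcc
Eef2, chr10:81176621-81176650, plus strand: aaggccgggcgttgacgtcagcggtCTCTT
Eef1b2, chr1:63176821-63176850, plus strand: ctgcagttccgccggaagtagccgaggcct
Tpt1, chr14:75845246-75845275, plus strand: cgctgacgacagttccgggggagccgcgga

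A run lay somewhere in the window of 4 of the 6 members, against 35.8% of all 32851 promoter windows of the same length on the gene's strand. In Rack1 the run was 16 bases long and spanned the annotated start, so that the transcript itself opened with a C followed by pyrimidines, which 2.51% of all promoters do. The run of Eef1a1 was 10 bases long and began 5 bases before the annotated start. Naca had a run of 5 bases that also began 5 bases before the start. That of Eef2 began at base 16 of the annotated transcript, at the edge of the window. Neither Eef1b2 nor Tpt1 had such a run in these letters, which says only that the annotated start used here does not place one in the window.

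The first comparison asks whether these mRNAs took the same share of polysomal RNA as of total RNA. Of the 9 members, 8 were lower in polysomal RNA and none was higher by edgeR's quasi-likelihood test (Benjamini-Hochberg adjusted p below 0.05), as by DESeq2, while 37.2% of the 11556 genes tested were lower and 38.8% were higher. The member median was a log2 change of -0.70, and the median over all genes tested was 0.02. The change ran from -1.72 for Naca to 0.00 for Rack1, which has the longest pyrimidine run of the 6 windows above. In these bulk samples, fewer cells of a type and less RNA per cell cannot be told apart. The ratio compares shares of 2 kinds of library and measures no absolute amount. The cell type markers given above also moved with this comparison, those of hepatocytes down and the erythroid ones up, and their part in it was not tested.

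**Figure D1:**
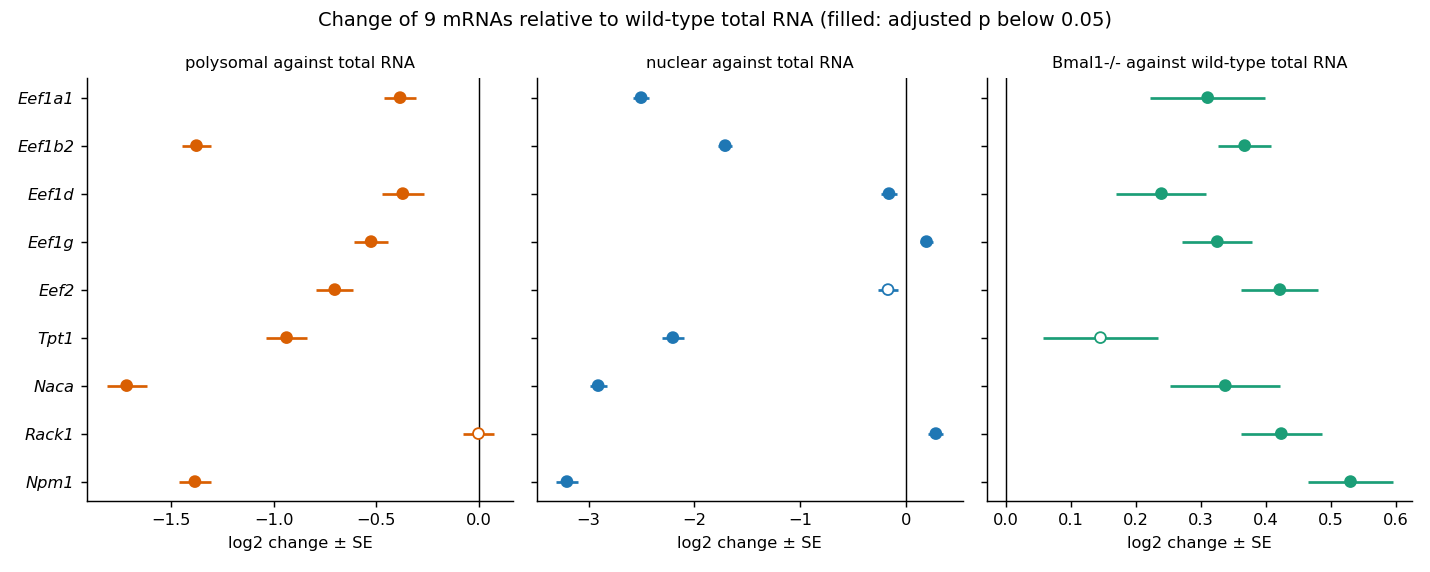
Log2 change of each of the 9 mRNAs (rows) in polysomal, nuclear and Bmal1-/- total RNA, each against wild-type total RNA (horizontal axes, separate scale per panel); points are edgeR estimates, lines are SE, and filled points passed the adjusted p threshold of 0.05. In polysomal RNA 8 of 9 points lie below 0 and Rack1 lies at 0, in nuclear RNA 5 members lie at -1.71 or lower and the other 4 between -0.17 and 0.29, and in Bmal1-/- all 9 lie above 0.

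Eef1b2 encodes the exchange factor subunit eEF1B alpha, and its polysomal change was the largest among the 5 Eef members. Its level was 229.7, 264 and 316 CPM (lowest, median and highest of 36 libraries) in total RNA and 60.0, 103 and 199.8 CPM in polysomal RNA. Every polysomal library was below every total RNA library, which was so for 2.18% of all genes tested. The log2 change was -1.38 (SE 0.07, adjusted p 6.98e-28), or 2.60-fold lower.

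Eef1a1, the gene of eEF1A in most tissues, changed less. Its lowest, median and highest levels were 358, 957 and 1380.2 CPM in total RNA and 485, 735 and 1369 CPM in polysomal RNA, so the libraries overlapped over most of their range. The log2 change was -0.38 (SE 0.08, adjusted p 8.13e-06). Eef1d and Eef1g encode the delta and gamma subunits that sit with Eef1b2's product in the eEF1B complex. Eef1d had 39.3, 78.7 and 104 CPM in total RNA and 29.7, 57.3 and 207 CPM in polysomal RNA, with a log2 change of -0.37 (SE 0.10, adjusted p 0.000803). Eef1g had 34.4, 70.9 and 97.8 CPM in total RNA and 28.9, 49.2 and 90.2 CPM in polysomal RNA, with a log2 change of -0.52 (SE 0.08, adjusted p 4.84e-08). The subunits of 1 complex thus differed in size of change, with Eef1b2 outside the range of Eef1d and Eef1g, and the difference between them was not tested.

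Eef2, the translocation factor, had 297, 756 and 1052 CPM in total RNA and 244, 480.1 and 1267 CPM in polysomal RNA. Its log2 change was -0.70 (SE 0.09, adjusted p 1.65e-10). The highest polysomal value lay above every total RNA library and came from replicate 1 at ZT18.

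Naca encodes the alpha chain of the nascent polypeptide-associated complex, which binds new chains as they leave the ribosome. Its level was 36.1, 110.4 and 139 CPM in total RNA and 12.4, 32.5 and 66.7 CPM in polysomal RNA, and 23 of 36 polysomal libraries were below every total RNA library. The lowest total RNA value came from replicate 4 at ZT2, and the next lowest, 67.5 CPM, was above the highest polysomal one. Naca was 3.29-fold lower in polysomal RNA (log2 -1.72, SE 0.10, adjusted p 6.52e-26). Npm1, which encodes the nucleolar chaperone nucleophosmin, had 86.5, 144 and 231 CPM in total RNA and 32.9, 55.4 and 104 CPM in polysomal RNA. In Npm1, 33 of 36 polysomal libraries were below every total RNA library, and the log2 change was -1.39 (SE 0.08, adjusted p 1.24e-26). No share over all genes is given for counts of part of the libraries, here or in nuclear RNA below.

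Tpt1 encodes translationally controlled tumour protein, an abundant protein whose mRNA is a textbook TOP mRNA. It had 50.6, 142 and 226 CPM in total RNA and 21.8, 73.9 and 162 CPM in polysomal RNA, with a log2 change of -0.94 (SE 0.10, adjusted p 3.58e-13). Processed copies of Tpt1 took counts too: Tpt1-ps3 had a mean of 27.5 CPM in total RNA and 4.17 CPM in polysomal RNA, and Tpt1-ps5 and Tpt1-ps6 had 8.14 and 7.76 CPM in total RNA and 0.803 and 1.94 CPM in polysomal RNA. The authors' counting could have split reads among these near-identical copies, and with their counts added to Tpt1 its polysomal log2 change was -1.20.

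Rack1, a scaffold protein on the small ribosomal subunit, was the exception. It had 204, 258 and 345 CPM in total RNA and 167, 281 and 499.7 CPM in polysomal RNA, with 6 polysomal libraries below and 7 above all those of total RNA. The log2 change was 0.00 (SE 0.07, adjusted p 0.997), and its sign depended on the replicates used. It was 0.25 within replicates 1 to 3 (adjusted p 0.0226) and -0.30 within replicates 4 to 6 (adjusted p 0.00213), both past the threshold and in opposite directions. By replicate number, the mean polysomal level of Rack1 was above that of total RNA for numbers 1, 2, 3 and 4 and below it for 5 and 6.

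**Figure D2:**
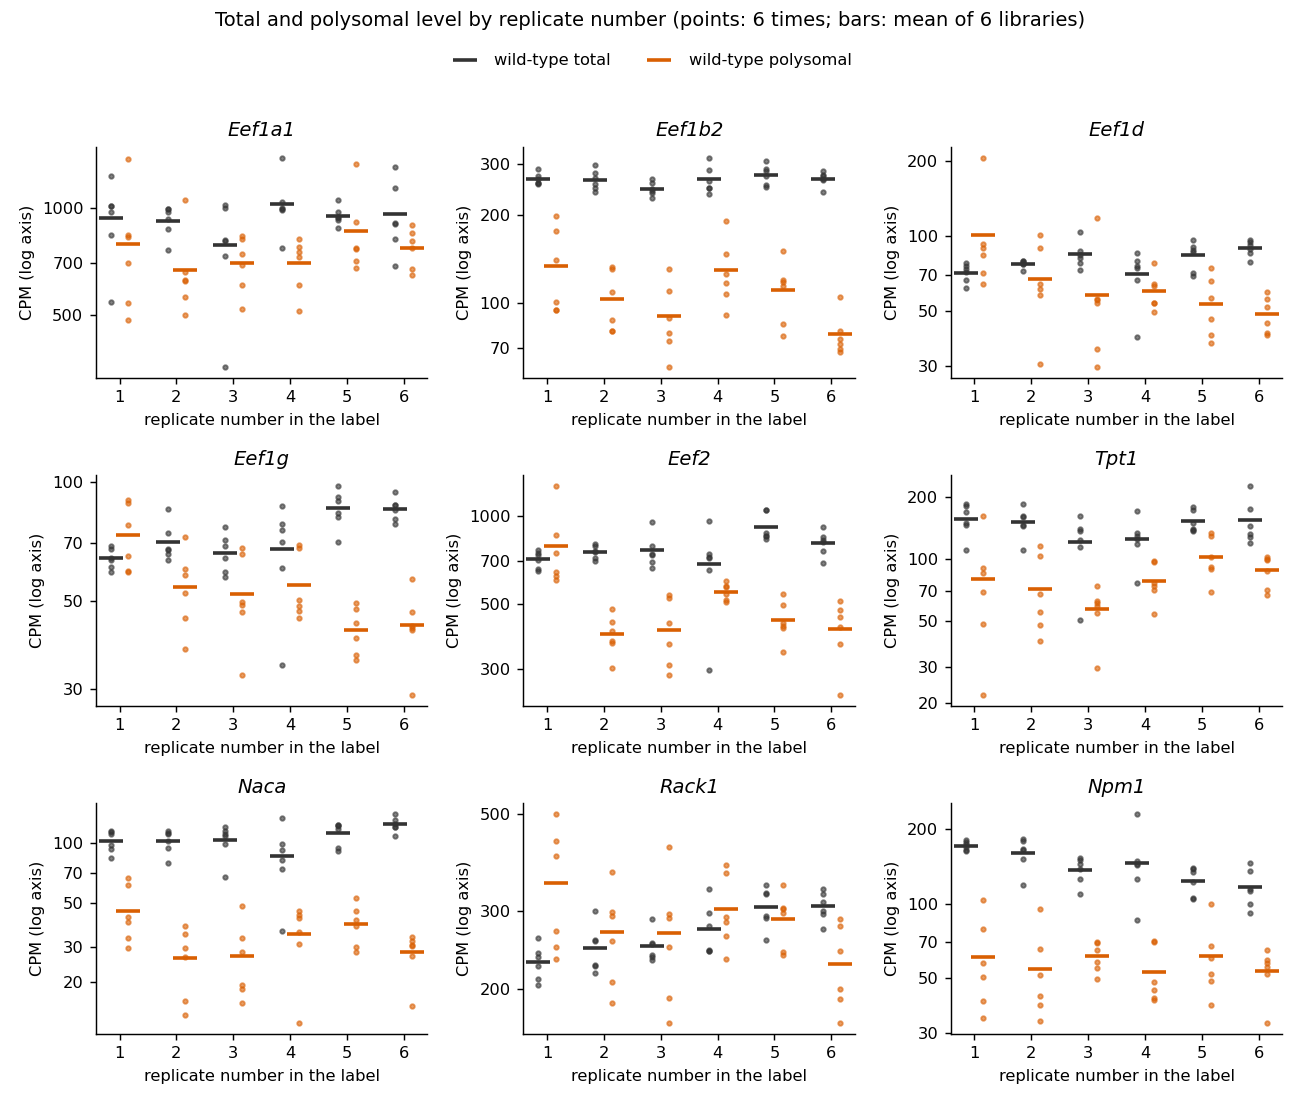
CPM (log axis) of each mRNA against the replicate number in the sample label, for wild-type total and polysomal RNA; points are the 6 time points and horizontal marks their mean. In replicate 1 the polysomal mean of Eef1d, Eef1g, Eef2 and Rack1 lies above that of total RNA, and for Eef1b2, Naca and Npm1 the polysomal mean lies below it at all 6 numbers.

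The polysomal replicate 1 libraries, those with lung marker counts, held more of several members. Their mean was 102 CPM ± 52.8 (SD, n = 6) for Eef1d against 71.4 CPM ± 6.08 in total RNA replicate 1, 73.4 CPM ± 14.2 against 64.1 CPM ± 3.76 for Eef1g, and 791 CPM ± 252 against 711 CPM ± 48.5 for Eef2. For these 3 members the polysomal mean lay below the total mean at the other 5 numbers. Without polysomal replicate 1, the log2 change was -0.51 for Eef1d, -0.61 for Eef1g and -0.86 for Eef2, the same 8 members were lower, and Rack1 was at -0.04. Replicates 1 to 3 alone gave 6 members lower and 1 higher, with Eef1d at -0.08 (adjusted p 0.65) and Eef1g at -0.18 (adjusted p 0.112). Replicates 4 to 6 alone gave 9 lower. For counts from part of the replicates no share over all genes is given.

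The polysomal difference was next taken at each time of day. Members lower in polysomal RNA numbered 5 at ZT2 (19.5% of all genes), 8 at ZT6 (20.7%), 7 at ZT10 (21.8%), 6 at ZT14 (22.4%), 5 at ZT18 (25.6%) and 5 at ZT22 (21.6%), and none was higher at any time. Eef1b2, Tpt1, Naca and Npm1 were lower at all 6 times, Eef2 at 5, Eef1a1 and Eef1g at 3, Eef1d at 1 and Rack1 at 0. The member median was -0.43 at ZT18 and -0.96 at ZT10, the values nearest to 0 and farthest from it. Without total RNA replicate 4 at ZT2, the library farthest from its group, Eef1a1 was also called lower at ZT2 (-0.49, adjusted p 0.0425). Eef1g was called there too (-0.53, adjusted p 0.0321), and Eef1a1 was no longer called at ZT18 (-0.41, adjusted p 0.0662).

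Without polysomal replicate 1, the libraries with lung marker counts, the order of the times was different. The member median was then -0.67 at ZT18, nearest to 0 at ZT2 with -0.62 and farthest at ZT10 with -1.07. That ZT2 value still includes total RNA replicate 4. Members called lower numbered 7 at ZT14, 6 at ZT18 and 7 at ZT22, and 5, 8 and 7 at ZT2, ZT6 and ZT10 as before. No share over all genes is given for these counts, and the shares above are from the fit with all libraries. Eef2 was then lower at all 6 times, with -0.74 at ZT18 (adjusted p 0.000338) against -0.33 with all libraries. Eef1g was lower at 5 times, with -0.56 at ZT18 (adjusted p 0.0126) and -0.45 at ZT22 (adjusted p 0.0499). Eef1d was lower at 3 times, with -0.51 at ZT14 (adjusted p 0.0386) and -0.74 at ZT22 (adjusted p 0.00273), where it was -0.23 with all libraries. Eef1a1 was lower at 2 times, its call at ZT18 having been lost (-0.36, adjusted p 0.109). Eef1b2, Tpt1, Naca and Npm1 were still lower at all 6 times and Rack1 at 0.

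The libraries of Eef1b2 did not overlap between polysomal and total RNA at any time. At ZT6 its polysomal libraries held 60.0, 99.7 and 109 CPM (lowest, median, highest of 6) and those of total RNA 254, 261 and 279 CPM, while at ZT18 they held 72.4, 131 and 147 CPM and 229.7, 254 and 289 CPM. Its log2 change was -1.68 at ZT2 and -1.02 at ZT18, each with an SE of 0.18. All 6 polysomal libraries were below all 6 of total RNA in 1 member at ZT2 (6.68% of all genes), 6 at ZT6 (11.6%), 7 at ZT10 (12.0%), 4 at ZT14 (12.5%), 4 at ZT18 (16.3%) and 3 at ZT22 (8.98%). Naca and Npm1 were separated in this way at every time but ZT2. Their lowest total RNA libraries at ZT2, with 36.1 CPM of Naca and 86.5 CPM of Npm1, were replicate 4, and their highest polysomal libraries there held 52.6 and 100.1 CPM. Total RNA replicate 6 at ZT2, with 91.8 CPM of Npm1, also lay below that polysomal library. With the 5 polysomal libraries other than replicate 1, the counts of separated members were 1, 7, 7, 4, 5 and 5 from ZT2 to ZT22. Separation is easier for any gene with 5 libraries than with 6, and no share over all genes is given for these counts. Rack1's change ran from -0.31 at ZT6 to 0.29 at ZT18, with no call at any time, and from -0.32 to 0.16 at the same times without polysomal replicate 1.

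**Figure D3:**
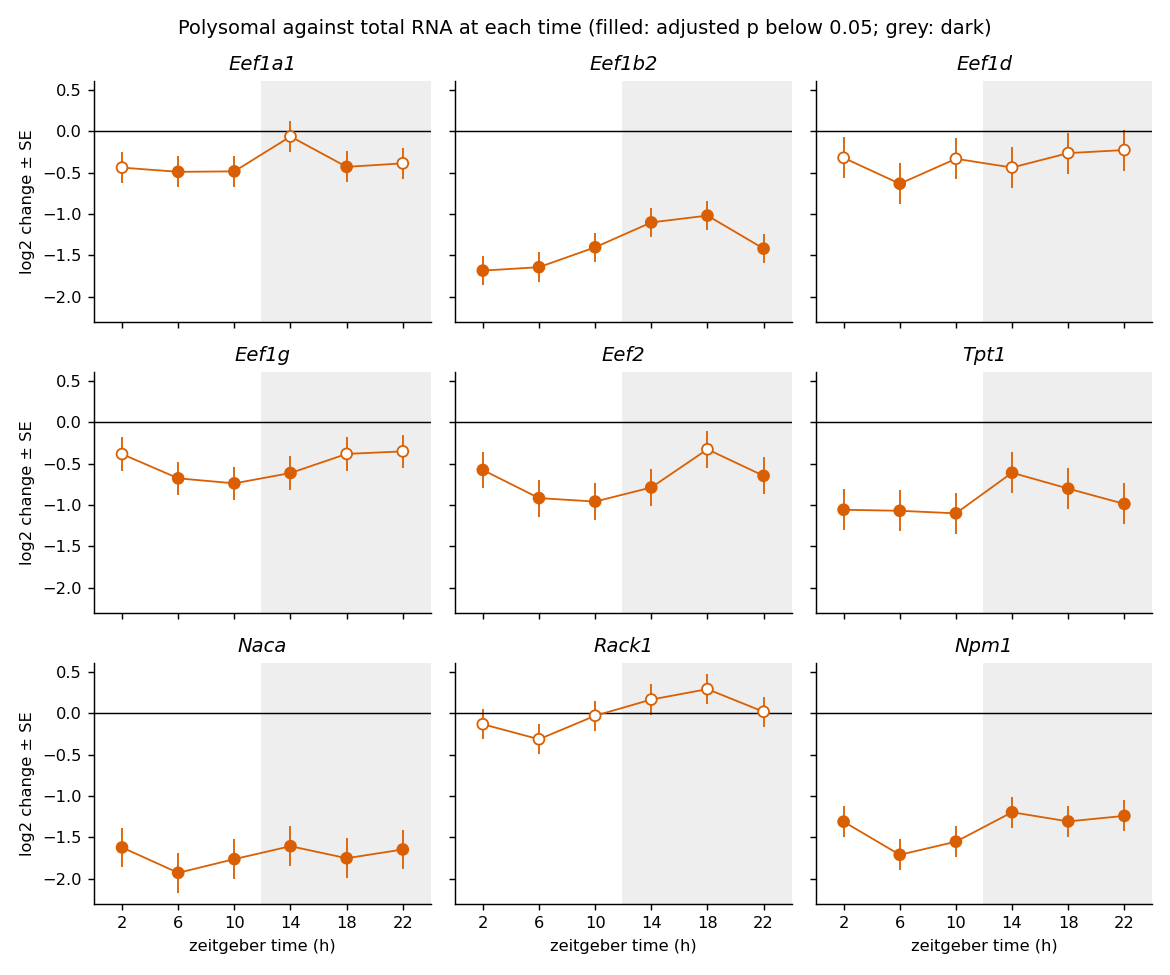
Log2 change of polysomal against total RNA (vertical axis, edgeR estimate with SE) at each zeitgeber time for the 9 mRNAs; filled points passed the adjusted p threshold of 0.05 and grey marks the dark phase. Eef1b2, Tpt1, Naca and Npm1 are filled at all 6 times, and Rack1 is filled at none and lies between -0.31 and 0.29.

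Whether the dark phase, when mice feed, differed from the light phase was tested as the mean of ZT14, ZT18 and ZT22 minus that of ZT2, ZT6 and ZT10. In polysomal RNA the log2 difference was above 0 for all 9 members, from 0.12 for Naca to 0.47 for Eef1b2 with a median of 0.32. The members were read from the same libraries, so a shared sign is not 9 separate results. No share of all genes above 0 is given for this difference or for polysomal minus total RNA below. Of the 9 members, 2 passed the threshold as higher in the dark, against 2.31% of the 10691 genes tested. Eef1b2 had a mean of 95.2 CPM in the light and 120.3 CPM in the dark (log2 0.47, SE 0.13, adjusted p 0.0365). Rack1 had 254 and 315 CPM (log2 0.46, SE 0.13, adjusted p 0.0287). The next members were Eef2 at 0.46 (SE 0.15, adjusted p 0.0836) and Eef1g at 0.40 (SE 0.14, adjusted p 0.0921). Without polysomal replicate 1 the values were 0.32 for Eef1b2 (adjusted p 0.193) and 0.31 for Rack1 (adjusted p 0.161), and no member passed.

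At ZT6 Rack1 had 167, 242 and 257 CPM (lowest, median, highest) in polysomal RNA, and at ZT14 it had 249, 336 and 401 CPM, so that 1 stretch of overlap between 249 and 257 CPM remained. Its total RNA libraries held 204, 258 and 315 CPM at ZT6 and 227, 291 and 338 CPM at ZT14. These times had the lowest and highest of the 6 polysomal means of Rack1, 232 and 331 CPM, and the pair was not tested.

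In wild-type total RNA the dark minus light difference ran from -0.01 to 0.23 with a median of 0.06, and no member passed by edgeR (9.23% of genes did, and 3 members were under 0.05 before adjustment). In nuclear RNA it ran from -0.04 to 0.17, with no member past the threshold (2.61% of genes) and 0 under 0.05 before adjustment. Bmal1-/- total RNA had a range from -0.02 to 0.17, again with no member past the threshold (0.0% of genes) and 0 before adjustment. Whether the polysomal difference exceeded that of total RNA was tested directly. The difference of differences was above 0 for all 9 members, from 0.10 for Naca to 0.40 for Eef1b2 (SE 0.14), but no member passed by edgeR (lowest adjusted p 0.841, 2 members under 0.05 before adjustment), and none of the 11556 genes did (0.0%). Without polysomal replicate 1 it was 0.26 for Eef1b2, 0.19 for Rack1 and -0.09 for Eef1d.

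A 24 h rhythm, fitted as a cosine and sine, was called for 2 members in polysomal RNA, where 7.9% of genes were called. Eef1b2 had a fitted peak-to-trough ratio of 1.66 with its peak at ZT16.8 (adjusted p 0.0191), and Rack1 a ratio of 1.63 with its peak at ZT17.7 (adjusted p 0.016). Eef1g and Eef2 had ratios of 1.57 and 1.65 and missed the threshold (adjusted p 0.0559 and 0.0579). In wild-type total RNA, where 18.9% of genes were called, only Naca was called among the 9 (ratio 1.36, peak at ZT12.2, adjusted p 0.0407). No member was called by edgeR in nuclear RNA (5.99% of genes, lowest adjusted p 0.651, 0 members under 0.05 before adjustment) or in Bmal1-/- (0.00825% of genes, lowest adjusted p 1, 0 members before adjustment). The rhythm of no member differed by edgeR's interaction test from that of wild-type total RNA in polysomal RNA (0.0% of genes, 2 members under 0.05 before adjustment), nuclear RNA (0.0% of genes, 0 members) or Bmal1-/- (5.18% of genes, 0 members). Leaving out replicate 1 ended the calls of Eef1b2, Rack1 and Naca.

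**Figure D4:**
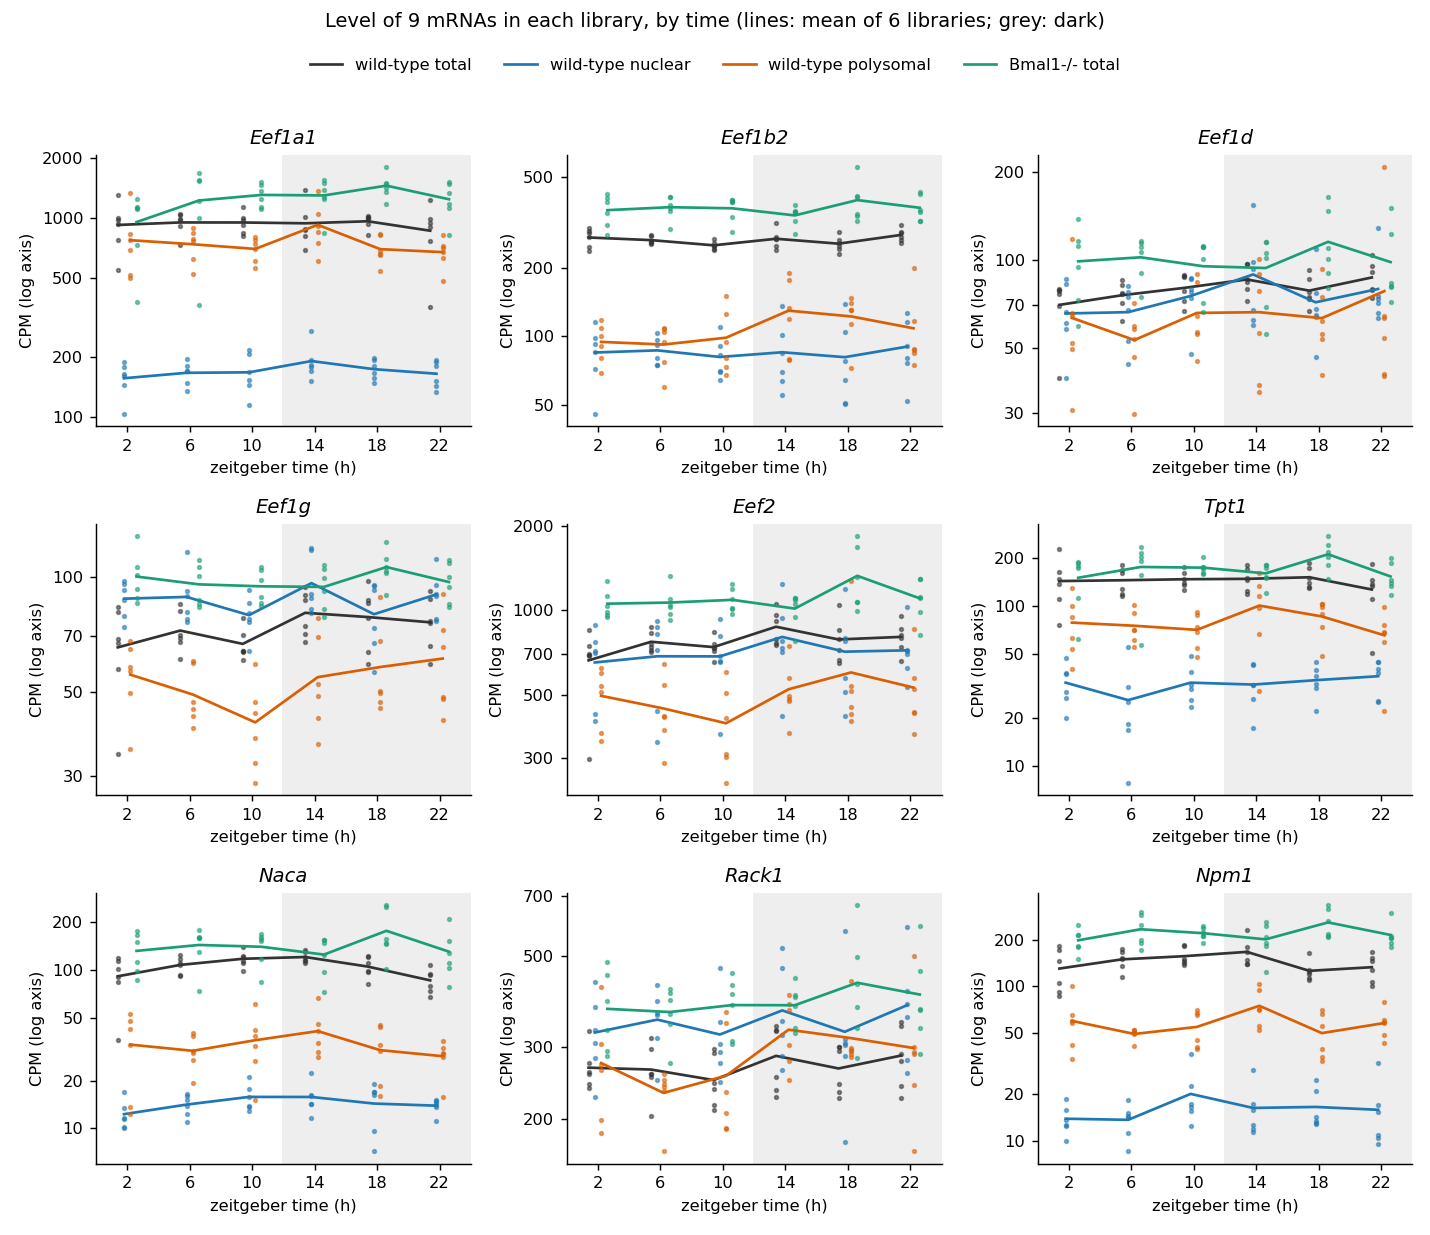
CPM (log axis) of the 9 mRNAs against zeitgeber time, with 1 point per library and lines through the means of 6 libraries for the 4 series; grey marks the dark phase. Eef1a1, Eef1b2, Tpt1, Naca and Npm1 are lowest in nuclear RNA, the Bmal1-/- lines lie above the wild-type total lines at every time for all 9, and the polysomal lines of Eef1b2 and Rack1 are higher in the dark.

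Nuclear RNA separated the members. Against total RNA, 6 of 9 were lower and 2 were higher (42.1% and 41.6% of the 11864 genes tested). Npm1 was lower by the widest margin, with 8.54, 14.4 and 36.2 CPM (lowest, median, highest of 36) in nuclear RNA and a log2 change of -3.21 (SE 0.10, adjusted p 4e-41), or 9.22-fold. Naca had 7.13, 14.3 and 22.2 CPM and a log2 change of -2.91 (SE 0.08). Eef1a1 had 104, 170.2 and 272 CPM and a log2 change of -2.50 (SE 0.08). For these 3 and for Eef1b2 every nuclear library was below every total RNA library, as was so for 4.91% of genes.

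Cell type markers moved between these series too. The 6 hepatocyte markers summed to a median of 47747 CPM in nuclear RNA (25989 to 63710) and 69885 CPM in total RNA (30596 to 90490). The 5 stellate cell and fibroblast markers summed to 141 CPM (84.2 to 271) and 268 CPM (182 to 368), and the 5 cholangiocyte markers to 38.0 CPM (19.2 to 69.8) and 25.7 CPM (16.2 to 66.6). Their part in the nuclear changes was not tested.

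Tpt1 had 7.82, 31.9 and 55.2 CPM in nuclear RNA (log2 -2.20, SE 0.10), with 35 of 36 libraries below all of total RNA. Eef1b2 had 45.8, 81.7 and 139 CPM (log2 -1.71, SE 0.07). The other 4 members were near their share of total RNA. Rack1 was higher, with 176, 318 and 589 CPM and a log2 change of 0.29 (SE 0.07, adjusted p 0.000184), and Eef1g was higher, with 56.3, 87.7 and 119 CPM and a log2 change of 0.20 (SE 0.07, adjusted p 0.00449). The Eef1g call was lost within replicates 4 to 6 (0.08, adjusted p 0.463) and without a low-count filter (0.09, adjusted p 0.32). Eef1d had 39.4, 72.2 and 154 CPM and a log2 change of -0.16 (SE 0.07, adjusted p 0.0444), a call that DESeq2 and other alternatives did not make. Eef2 did not pass, with 341, 716 and 1239 CPM and a log2 change of -0.17 (SE 0.10, adjusted p 0.0988). It passed as lower without nuclear replicate 3 (-0.22, adjusted p 0.0274) and without a low-count filter (-0.27, adjusted p 0.00938).

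Nuclear and polysomal changes are set side by side for a pair of members: Eef1a1 changed by -2.50 in nuclear and -0.38 in polysomal RNA, and Eef1b2 by -1.71 and -1.38. Both comparisons share the total RNA libraries.

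In Bmal1-/- livers, 8 of 9 members were higher than in wild-type total RNA and none was lower, against 22.4% and 21.7% of the 12082 genes tested. The member median was 0.34 on the log2 scale and the median over all genes was 0.01. Npm1 changed most, from 86.5, 144 and 231 CPM to 123, 211 and 334 CPM (log2 0.53, SE 0.07, adjusted p 3.28e-10). Rack1 reached 274, 378 and 665 CPM (log2 0.42, SE 0.06, adjusted p 5.41e-08). Eef2 reached 781, 1068 and 1833 CPM (log2 0.42, SE 0.06, adjusted p 1.48e-08). Of the 36 Bmal1-/- libraries, 23 lay above every wild-type library for Rack1 and 20 for Eef2. No share over all genes is given for these counts or for that of Eef1b2 below.

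Eef1b2 had 279, 358 and 551 CPM in Bmal1-/- (log2 0.37, SE 0.04, adjusted p 1.65e-11), with 31 of 36 libraries above all of wild type. The other called members were Naca at 0.34 (SE 0.08), Eef1g at 0.33 (SE 0.05), Eef1a1 at 0.31 (SE 0.09) and Eef1d at 0.24 (SE 0.07). Tpt1 was at 0.15 (SE 0.09, adjusted p 0.183) and was called at 0.25 without replicate 1. The mean was higher in Bmal1-/- at all 6 times for all 9 members. Within replicates 1 to 3, 5 members passed as higher, and Eef1d was at 0.03. No share over all genes is given for either count. The hepatocyte markers had a median summed level of 55423 CPM in Bmal1-/- and 69885 CPM in wild type, the erythroid markers 1384 and 2395 CPM, the stellate cell and fibroblast markers 329.5 and 268 CPM, and the cholangiocyte markers 73.5 and 25.7 CPM; their part in these changes was not tested.

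Other genes of the machinery were read from the same fit of polysomal against total RNA, in which 37.2% of all genes tested were lower and 38.8% higher. Of 10 other mRNAs known for a TOP start, 8 were lower and 1 was higher, with a median of -0.48. Eif3h, a subunit of initiation factor eIF3, was at -0.95 (SE 0.08), Vim, the gene of vimentin, at -1.08 (SE 0.10), and Btf3, whose product pairs with that of Naca, at 1.47 (SE 0.11). Of the cytosolic ribosomal protein genes, 85 of 88 were tested, 77 were lower and 2 were higher, with a median of -1.40. Rps19 fell from a mean of 135 to 12.4 CPM (log2 -3.56, SE 0.16), Rpl28 from 83.0 to 8.09 CPM and Rpl17 from 54.4 to 5.19 CPM. A median of -0.70 placed the 9 members between these ribosomal protein genes and all genes.

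Other cytosolic genes listed with elongation, which include modifying enzymes as well as factors, went both ways in polysomal RNA. Of 12 tested among 18, 7 were higher and 3 lower, against 38.8% and 37.2% of all genes tested. Eif5a, the factor that helps the ribosome past difficult stretches, rose from a mean of 199 to 697 CPM (log2 1.74, SE 0.08). Eef1akmt1, a methyltransferase of eEF1A, was at 1.18 (SE 0.12), and Eef1e1, a multisynthetase complex protein, at 1.14 (SE 0.17). Of the 4 mitochondrial elongation factors 1 was higher, Tsfm at 0.90 (SE 0.17), and 1 lower, Gfm1 at -0.71 (SE 0.11), while Tufm was at -0.15 (SE 0.12, adjusted p 0.238).

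Partners of the nascent polypeptide-associated complex and of the ribosome's exit went both ways. Of 8 tested, 5 were higher and 2 lower, against 38.8% and 37.2% of all genes tested. Btf3 and Srp54a, a subunit of the signal recognition particle, were at 1.47 and 1.70 (SE 0.11 and 0.12). The chaperone Hspa8 was at -1.85 (SE 0.11). Thus Naca, at -1.72, and its partner Btf3 lay on opposite sides of 0. Of the 6 nucleolar genes listed with Npm1, 2 were higher and 3 lower, against the same shares of all genes. Ncl, the gene of nucleolin, fell from 186 to 58.3 CPM (log2 -1.72, SE 0.12), Nop56 was at -1.23 (SE 0.17), and Npm3, a relative of Npm1, was at 1.64 (SE 0.09).

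Of 12 regulators of TOP mRNAs, 6 were lower and 2 higher, against 37.2% and 38.8% of all genes tested. Larp1, the protein that binds the TOP start, had a mean of 186 CPM in total and 73.6 CPM in polysomal RNA (log2 -1.41, SE 0.10). Rptor, an mTOR complex subunit, was at -1.20 (SE 0.12), and Rps6kb2, an S6 kinase, at -2.75 (SE 0.35). Genes whose annotated start is a C followed by at least 4 pyrimidines did not lie to 1 side as a whole. Of 253 tested, 91 were higher and 92 lower, with a median of -0.04, against 38.8% and 37.2% of all genes tested. Among the 6 members with a promoter sequence, only Rack1 met this rule.

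Likeness to the members was measured as the Pearson correlation of a gene's 24 group means of log2 CPM with the members' mean profile, among 5243 well-counted genes. The 8 genes most alike were Gm8430, Gm9354, Rpl23, Rpl30, Rpl34-ps1, 2700060E02Rik, Rpl22 and Paics, with r from 0.985 to 0.993. The group means share libraries and depth, and most of their spread is between the 4 series. Among the members, the same correlation was 0.98 between Tpt1 and Npm1 and between Naca and Npm1, and 0.94 between Eef1d and Eef2. It was 0.07 between Rack1 and Npm1, 0.14 between Eef1g and Npm1, and -0.11 between Eef1a1 and Eef1g. Between Eef1g and Rack1 it was 0.79.

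The 3′ reads also show which polyadenylation site each mRNA used. The authors' filtered list held 37 sites within 8 members, and site usage of Eef2 was not analysed here. Usage is given as the percentage of a gene's site counts that fell at a site. In polysomal against total RNA, 21 of 23 tested sites differed in share (70.5% of all sites tested), 9 higher and 12 lower. At least 1 site differed in each of the 8 members. No fit of site usage left out polysomal replicate 1 alone, the libraries with lung marker counts, so the polysomal shares below include them. In nuclear against total RNA 20 of 22 did (78.7% of sites), and in Bmal1-/- 1 of 22 did (9.05% of sites).

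**Figure D5:**
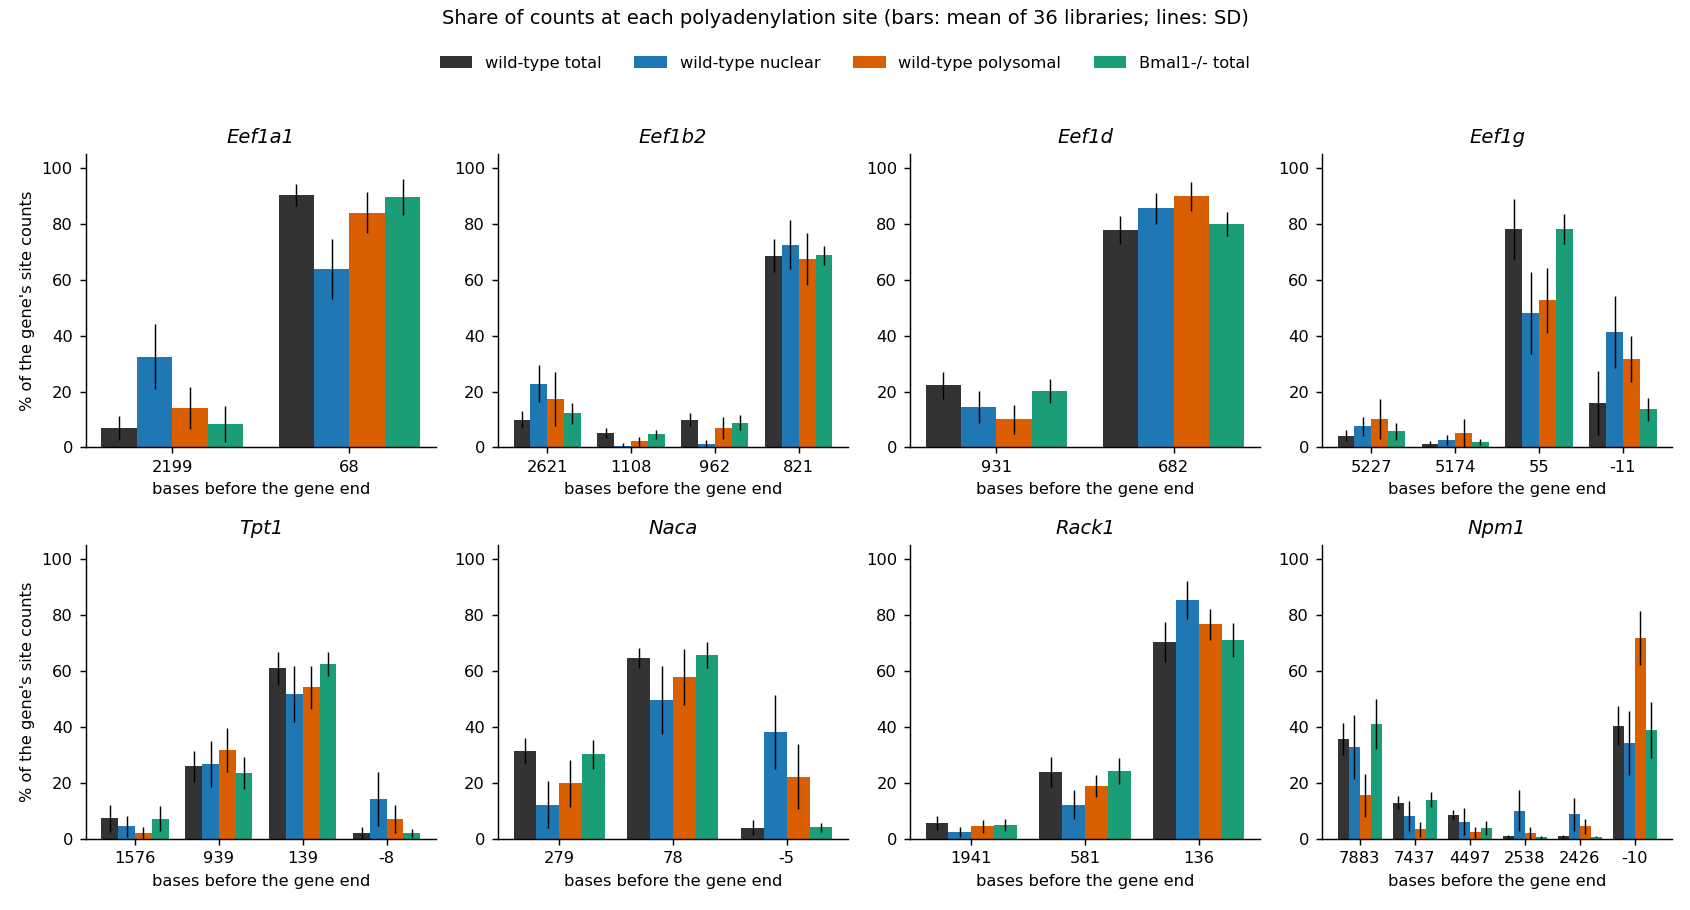
Share of a gene's site counts at each polyadenylation site (vertical axis, percent; bars are means of 36 libraries, lines SD) for 8 members in the 4 series, with sites placed from upstream to downstream by their distance before the annotated gene end in bases; sites that reach 5% in no series are left out. The last Npm1 site takes 71.8% in polysomal RNA and 40.5% in total RNA, and the last Naca site takes 38.2% in nuclear RNA and 3.96% in total RNA.

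Npm1 (chromosome 11, minus strand, mm10) shifted in polysomal RNA toward its last site, at 33152488 to 33152690 on the annotated gene end. This site took 40.5% ± 6.81 (SD, n = 36) of Npm1 counts in total RNA and 71.8% ± 9.73 in polysomal RNA (log2 usage 0.83, SE 0.05, adjusted p 1.52e-21). The range was 30.4% to 55.2% in total RNA and 49.3% to 89.1% in polysomal RNA, so the libraries overlapped only between 49.3% and 55.2%. Sites far inside the gene body fell: the one at 33160381, 7883 bases before the gene end, took 35.6% ± 5.72 and 15.6% ± 7.74 (log2 -1.25, SE 0.11). Sites at 33159935 and 33156995 fell from 12.8% and 8.63% to 3.49% and 2.34%. The site at 33156995 was also the 1 called in Bmal1-/-, with 3.87% ± 2.41 against 8.63% ± 1.79 in wild type (log2 -1.18, SE 0.16, adjusted p 8.28e-08).

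Naca (chromosome 10, plus strand) shifted toward its last site, at 128048631 to 128048642. Its share was 3.96% ± 2.78 (SD, n = 36) in total RNA, 22.2% ± 11.5 in polysomal RNA (log2 usage 2.52, SE 0.17, adjusted p 3.48e-21) and 38.2% ± 13.3 in nuclear RNA (log2 usage 3.33, SE 0.15, adjusted p 1.04e-29). The 2 upstream Naca sites, at 128048257 and 128048492, fell in both. A nuclear library held a median of 48.0 site counts of Naca and 49.5 of Npm1, which limits the precision of a single nuclear share.

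In Eef1a1 (chromosome 9, minus strand) a site at 78480652, 2199 bases before the gene end, took 6.96% ± 4.19 in total RNA, 14.1% ± 7.56 in polysomal RNA and 32.5% ± 11.7 in nuclear RNA (log2 usage 1.04 and 2.24 against total). Its main site, at 78478521, took 90.3%, 84.0% and 64.0% in the same order. In Eef1b2 (chromosome 1, plus strand) the first site, at 63177794, rose from 9.98% to 17.3% in polysomal and 22.8% in nuclear RNA, and a site at 63179459 fell from 10% in total RNA to 1.27% in nuclear RNA (log2 -3.20). Eef1d (chromosome 15, minus strand) used its downstream site, at 75895478, for 77.8% ± 4.90 of counts in total RNA and 89.8% ± 5.16 in polysomal RNA. In Eef1g (chromosome 19, plus strand) the last site with over 5% of counts, at 8978159, took 15.8% ± 11.4 in total RNA, 31.5% ± 8.20 in polysomal and 41.3% in nuclear RNA. Rack1 (chromosome 11, plus strand) went from 70.4% ± 7.14 in total RNA to 76.7% ± 5.52 in polysomal RNA at its main site at 48805980 (log2 0.13, adjusted p 6.82e-05).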

How the data were processed

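The deposited gene table holds raw counts per gene symbol and the deposited site table raw counts per polyadenylation site, 1 column per library, made by the authors, and both were used as deposited. Per the submitters' processing notes, STAR 2.4.2a, edgeR and HOMER were used with mm10 and GRCm38.p5. Positions follow the authors' site list.

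Groups came from the sample titles, and 0 value columns were without a sample. Gene counts were tested in R 4.3.3 with edgeR 4.0.16 (robust quasi-likelihood F tests, TMM scaling), for genes whose mean in the fitted libraries reached 10 counts, adjusted by Benjamini-Hochberg over all genes at a threshold of 0.05. A pair of series entered a fit as 12 groups of series and time, and the 6 times were weighted equally. Rhythm was a cosine and sine of 24 h. Of 29199 filtered sites, 26594 were assigned to 9022 genes of the RefSeq GRCm38.p6 table (on the strand, up to 1000 bp past the end, with site sums 0.3 to 1.5 times the gene count). Usage was tested on site counts with the log of the gene total plus 0.5 as offset, for sites with at least 5% of counts in genes averaging 50 or more counts. The tests were tried on simulated counts. Alternatives were DESeq2 1.42.0, median-ratio size factors, no low-count filter, all 4 series in one fit, a replicate block, sets of replicates, site sums and added copies.

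The 9 members and all gene lists were chosen with earlier results of these data known. Named besides the members are the 3 genes of each list with the largest polysomal change (Prss2, with counts in polysomal RNA alone, is left without values) and the 8 genes most like the members. Cell type markers were summed in CPM, and some, not all, of the lists whose sums differed between series are given with that comparison. Counts were 13 to 17123 per member and library, and no interval below covers more than the spread between libraries.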

Additional observations from a re-analysis of the deposited data

Results flagged for a closer look

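In 216 groups of 6 libraries (9 members, 4 series, 6 times), the highest or lowest library was set apart in 17 by a gap to its nearest neighbour above Dixon's 95% critical value; chance gives about 1 in 20 groups. Polysomal replicate 1, the replicate with lung marker counts, gave 4 of them. At ZT22 it had 199.8 CPM of Eef1b2 (others 74.9 to 117) and 207 CPM of Eef1d (others 40.1 to 64.2), and at ZT18 it had 1267 CPM of Eef2 (others 405 to 539.9) and 433 CPM of Rack1 (others 284 to 298). The total RNA library at ZT2, replicate 4, was low for Eef1d at 39.3 CPM (others 69.3 to 79.4) and for Eef2 at 297 CPM (others 690.1 to 852).

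Nuclear RNA gave 7. Replicate 4 had 272 CPM of Eef1a1 (others 152 to 194) and 28.8 CPM of Npm1 (others 11.4 to 17.3) at ZT14, 32.0 CPM of Npm1 at ZT22 (others 9.52 to 17.1) and 47.6 CPM of Eef1d at ZT10 (others 73.9 to 86.8). Replicate 5 had 128 CPM of Eef1d at ZT22 (others 63.1 to 75.1) and 575 CPM of Rack1 at ZT18 (others 176 to 314). Replicate 6 had 11.1 CPM of Naca at ZT22 (others 13.7 to 15.2).

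The others were polysomal replicate 3 at ZT6 with 167 CPM of Rack1 (others 234 to 257), polysomal replicate 4 at ZT6 with 41.1 CPM of Npm1 (others 49.0 to 52.0), total RNA replicate 1 at ZT18 with 163 CPM of Npm1 (others 109 to 127) and Bmal1-/- replicate 5 at ZT22 with 298 CPM of Npm1 (others 179 to 209.9).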

How the results depend on the processing

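The values of the 9 members against total RNA kept their direction under every alternative run, except Rack1 in polysomal RNA, which was 0.00 (0.00205) with a replicate block and 0.25 in replicates 1 to 3. The causes of the changes below were not tested, and no share over all genes is given for the counts of members. In replicates 1 to 3, 1 member was higher in polysomal RNA, 5 were higher in Bmal1-/-, and members lower in polysomal RNA numbered 4 at ZT6, 4 at ZT10, 3 at ZT14 and 3 at ZT18, with 1 higher at ZT18. In replicates 4 to 6, 8 were lower at ZT22. In nuclear RNA 1 member was higher in replicates 4 to 6, and 1 without a low-count filter. That filter's removal also moved the polysomal median of all genes from 0.02 to -0.29.

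By time, Rack1 turned in polysomal RNA to 0.10 at ZT2 in replicates 1 to 3, to -0.11 at ZT14, -0.10 at ZT18 and -0.61 at ZT22 in replicates 4 to 6, and at ZT22 to -0.0746 with median-ratio size factors and -0.0715 without a low-count filter. Without replicate 1 or without polysomal replicate 1, Rack1 ran from -0.23 to -0.14 at ZT22 and from -0.0447 to 0.0188 at ZT10. In replicates 1 to 3, Eef1a1 turned to 0.078 at ZT14, Eef1d to 0.22 at ZT18 and 0.32 at ZT22, Eef1g to 0.22 and 0.19 at these times and Eef2 to 0.29 at ZT18. The dark minus light difference turned for Naca to -0.12 in polysomal RNA and to -0.0378 in polysomal minus total RNA in replicates 1 to 3. In polysomal minus total RNA it turned in replicates 4 to 6 for Eef1d (-0.21), Eef1g (-0.10), Eef2 (-0.0486) and Npm1 (-0.13), and for Eef1d to -0.12 without replicate 1 and -0.0895 without polysomal replicate 1.

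Members higher in the dark in polysomal RNA numbered 0 in replicates 1 to 3, in replicates 4 to 6, without a low-count filter, and without replicate 1 or polysomal replicate 1. Rhythm calls in total RNA numbered 0 in a fit of all 4 series, in either set of replicates and without replicate 1. In polysomal RNA they numbered 4 in the fit of all 4 series, 1 in replicates 1 to 3, 0 in replicates 4 to 6 and 0 without replicate 1. Site usage calls in Bmal1-/- numbered 2 in genes with a mean of 200 counts and 2 in replicates 1 to 3.

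Replicate numbers recur across series, and the labels do not say that they pair samples. Deviations of same-numbered libraries correlated at a mean r of 0.34 between nuclear and total RNA (34 of 36 pairs over 0.1), -0.13 for polysomal and 0.07 for Bmal1-/-. With a replicate block, members called numbered 3 for dark against light in total RNA (Eef1d at 0.18, Eef1g at 0.23 and Eef2 at 0.22), 4 in polysomal RNA, 3 for rhythm in total RNA, 4 in polysomal RNA, and 3 sites in Bmal1-/-; Rack1's polysomal change was 0.00205 and Eef2 was called in nuclear RNA at -0.21. Depth limits nuclear values most: a library held as few as 13 counts of Tpt1.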
